A study of Mus musculus with 9 samples.

Results

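Hedgehog is a secreted signal that many vertebrate tissues use in development and repair. Its ligands bind the receptor Patched, which otherwise holds the membrane protein Smoothened inactive, and active Smoothened turns the Gli transcription factors from repressors into activators. In vertebrates this relay runs through the primary cilium, a sensory organelle whose assembly needs intraflagellar transport. In the adult mouse kidney tubule cells are known as a source of ligand, and Gli1 is known as a marker of perivascular stromal cells. The genes examined here are 9 named components of the pathway: the ligand gene Ihh, the receptor gene Ptch1, the ligand-binding inhibitor gene Hhip, the co-receptor gene Gas1, Smo, the inhibitor gene Sufu, and Gli1, Gli2 and Gli3. They were found by symbol in a table of 22161 genes, and all 9 passed the filter on low values that left 15740 genes to test.

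Kidney RNA came from 9 C57BL/6 mice, 3 in each of 3 groups. Double knockout mice (DKO) were Ift88fl/fl;Pkd2fl/fl;Pax8rtTA;TetO-cre, Pkd2 knockout mice (KO) were Pkd2fl/fl;Pax8rtTA;TetO-cre, and the third group was labelled wild type (WT). Oral doxycycline, which switches the Cre on, was given to every group, WT included, at 2 mg/ml over 2 weeks that began on postnatal day 28. Kidneys were taken on postnatal day 70. Pkd2 encodes the channel polycystin-2, lost in one form of polycystic kidney disease, while the product of Ift88 is a subunit of the intraflagellar transport machinery. Pax8 drives the transgene in tubule epithelium, so stromal and vascular cells of these kidneys are not the cells in which deletion is directed.

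The labels held in the data, as lower rather than absent RNA in whole kidney. Pkd2 was 3777 to 5181 normalized counts in DKO, 4723 to 5549 in KO and 13768 to 14505 in WT kidneys. Ift88 was 691 to 831 in DKO, 1086 to 1214 in KO and 1056 to 1132 in WT. By the test described below, Ift88 passed in DKO against KO (limma adjusted p = 0.0358) and missed the threshold in DKO against WT (limma adjusted p = 0.0617). The proximal tubule list was present in full (12 of 12 markers, summed level 770839 to 908474 over the 9 libraries), whereas of 9 adrenal markers 7 were in the table and 2 were high enough to test. KO 3 stood apart from all other libraries in blood and fat markers, with summed levels of 7394 for 7 erythroid genes and 8941 for 9 adipose genes, against at most 2766 and 6007 elsewhere. WT 3 and KO 3 also carry another mouse-name prefix than the other mice of their groups. Normalized totals lay between 40454151 and 42874467.

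No Hedgehog gene passed the test in any comparison of genotypes. limma on log2(normalized count + 1), adjusted by Benjamini-Hochberg over the 15740 genes, called 0 of 9 between DKO and KO, 0 of 9 between DKO and WT and 0 of 9 between KO and WT. Of all tested genes it called 0.394% between DKO and KO, 0.229% between DKO and WT and 2.4% between KO and WT, so 0 of 9 lies near the background in each. At an unadjusted p below 0.05 the count was also 0 of 9 in each comparison, while of all genes 10.7% had such a p between DKO and KO, 11.7% between DKO and WT and 18% between KO and WT. edgeR and DESeq2, run on the 7 libraries whose read counts could be recovered (without WT 1 and KO 1), called 0 of 9 as well. Of all 15740 genes edgeR called 10 between DKO and KO, 10 between DKO and WT and 11 between KO and WT. DESeq2 called 149, 111 and 296 in the same order, so 0 of 9 lies near these backgrounds too. Values of the groups did not overlap for 0 of 9 genes between DKO and KO, against 15.2% of all genes, and for 0 of 9 between DKO and WT, against 18.3% of all genes. The median log2 fold change of the 9 genes was -0.03 between DKO and KO, -0.01 between DKO and WT and 0.01 between KO and WT, beside a median of 0.00 over all genes in each. A p that misses the threshold does not show that levels are the same, and the intervals below give what these mice allow. The 3 comparisons share groups, and 3 mice against 3 cannot reach an exact permutation p below 0.1.

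**Figure D1:**
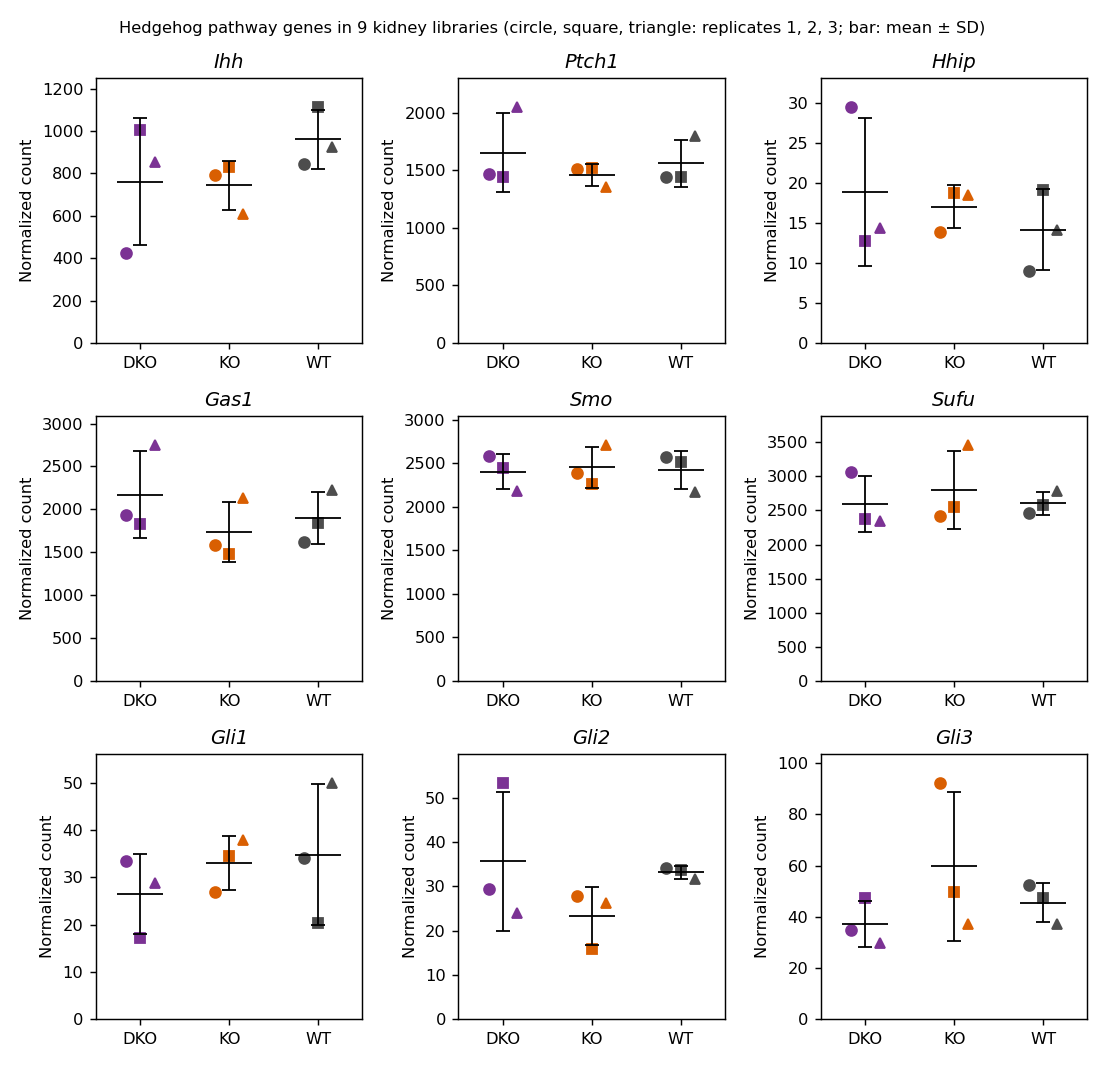
Normalized counts of the 9 Hedgehog genes (vertical axes, from 0) in DKO, KO and WT kidneys, one symbol per mouse, with the mean and SD of 3 mice. The groups overlap in every panel except KO against WT for Ihh and Gli2, and single mice stand off from their group, such as DKO 1 for Ihh at 426 and KO 1 for Gli3 at 92.4.

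Ihh encodes Indian hedgehog, the ligand of the set. It had 426, 1003 and 853 normalized counts in DKO mice 1, 2 and 3, against 791, 829 and 609 in KO mice and 844, 1114 and 924 in WT mice. All 3 KO values lay below all 3 WT values, while DKO 1 was the lowest of the 9 mice and DKO 2 was higher than 2 of the WT mice. Ihh and Gli2 were the 2 of 9 genes whose KO and WT values did not overlap, both lower in KO, as was the case downward for 12.8% of all genes and in either direction for 25.2%. The log2 fold change of Ihh between KO and WT was -0.37 ± 0.28 (SE, limma adjusted p = 0.524), with a 95% interval that ran from 0.496 to 1.20 as a fold. DKO against WT gave -0.42 ± 0.28 (adjusted p = 0.619) and DKO against KO -0.04 ± 0.28 (adjusted p = 0.979). The residual SD of Ihh, 0.42 on the log2 scale, was larger than that of 95.7% of the 4532 genes within 2-fold of its mean, whose median was 0.14. Without DKO 1 the fold change between DKO and KO was the highest of those that left out 1 mouse, 0.33, against -0.29 at the other end.

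Summed levels of tubule markers moved between the same groups. The list of 10 thick ascending limb and distal nephron markers summed to 249712 to 333462 in DKO, 196654 to 240051 in KO and 403217 to 429996 in WT, and 5 of its 10 members fell in KO against WT while 0 rose, where 2.4% of all genes passed in either direction. The 12 proximal tubule markers summed to 878598 to 908474 in DKO, 839265 to 866952 in KO and 770839 to 843896 in WT, so KO and WT overlapped. The most abundant were Slc34a1, Lrp2 and Cyp4b1. In KO against WT 1 of the 12 rose (Slc5a12) and 0 fell, where 2.4% of all genes passed. At an unadjusted p below 0.05 the 12 went both ways there, 2 higher and 3 lower (18% of all genes). In DKO 4 were higher and 0 lower against KO (10.7% of all genes), and 5 higher and 0 lower against WT (11.7%). Of the 10 distal markers 4 were higher and 0 lower in DKO against KO, and 0 higher and 7 lower in DKO against WT. After adjustment 0 of either list passed in DKO against KO (0.394% of all genes) or DKO against WT (0.229%). The part of these shifts in the Ihh values was not tested. In bulk tissue fewer cells of a type and less RNA per cell cannot be told apart.

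Ptch1 encodes the Patched receptor and is itself a transcriptional target of the pathway in many tissues. Its levels were 1471, 1439 and 2053 in DKO, 1509.5, 1518 and 1352 in KO and 1438, 1442 and 1799 in WT. DKO 3 and WT 3 were high, and the other 7 mice lay within 1352 to 1518. The log2 fold changes were 0.16 ± 0.15 between DKO and KO (adjusted p = 0.795), 0.07 ± 0.15 between DKO and WT and -0.09 ± 0.15 between KO and WT. The 95% interval of the DKO to KO ratio was 0.891 to 1.41.

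Hhip, a membrane-anchored protein that binds Hedgehog ligands away from Patched and is likewise known as a target, was the scarcest of the 9. It had 29.5, 12.7 and 14.4 normalized counts in DKO, 13.9, 18.7 and 18.5 in KO and 9.04, 19.2 and 14.2 in WT. DKO 1 was the highest mouse and WT 1 the lowest, and the groups overlapped throughout. The intervals were correspondingly wide, 0.559 to 1.93 as a fold between DKO and KO and 0.663 to 2.29 between KO and WT. At these counts, folds within those bounds cannot be told from no change.

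RefSeq promoter windows (GRCm38.p6, 250 bases before to 50 after the start) were matched by symbol for 8 of the 9 genes, all but Gli1. The windows of Ptch1 and Hhip are shown as those of target genes whose levels report on Gli activity in other tissues. Gli1 is another such gene but has no window. Capitals mark CCACC, the centre of the Gli consensus and contained in it, or GGTGG where it lies on the other strand.
Ptch1, chr13:63565686-63565985, minus strand: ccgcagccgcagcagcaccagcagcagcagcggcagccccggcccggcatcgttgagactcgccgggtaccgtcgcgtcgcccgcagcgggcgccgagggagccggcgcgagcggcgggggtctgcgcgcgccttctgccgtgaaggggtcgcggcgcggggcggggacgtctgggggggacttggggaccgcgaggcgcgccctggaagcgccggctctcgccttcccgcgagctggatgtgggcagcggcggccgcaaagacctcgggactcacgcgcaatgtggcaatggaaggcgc
Hhip, chr8:80057959-80058258, minus strand: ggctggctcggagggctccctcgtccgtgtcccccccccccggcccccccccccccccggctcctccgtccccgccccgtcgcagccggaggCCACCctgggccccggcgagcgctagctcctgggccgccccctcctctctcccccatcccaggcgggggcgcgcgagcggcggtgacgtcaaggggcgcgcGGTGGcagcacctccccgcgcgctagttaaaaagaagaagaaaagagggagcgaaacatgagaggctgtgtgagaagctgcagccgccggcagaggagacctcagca

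The 9-letter consensus GACCACCCA, searched on both strands, was in 0 of the 8 windows exactly or with 1 mismatch outside CCACC. Of all 32841 windows 0.253% held it exactly and 3.68% with up to 1 mismatch. The centre alone was in 60.4% of all windows, 2 times in the Hhip window and not in the Ptch1 window. These letters are absent from these windows, which says nothing of Gli binding elsewhere.

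Gas1 encodes a membrane protein that helps ligand reach Patched. It had 1930.3, 1825 and 2753 normalized counts in DKO, 1585, 1477 and 2131 in KO and 1625, 1839 and 2230.4 in WT. The highest mouse of each group was its replicate 3 (DKO 3, KO 3 and WT 3), and the groups overlapped. The log2 fold change between DKO and KO was 0.32 ± 0.19 (adjusted p = 0.645), that between DKO and WT 0.18 ± 0.19 and that between KO and WT -0.14 ± 0.19. Without KO 3 the first became 0.48 (unadjusted p = 0.0339, limma adjusted p = 0.278). That was the upper end when 1 mouse was left out. The lower end was 0.14, and the limma adjusted p reached 0.963. Within GENCODE M21 19.9% of the exonic bases of Gas1 lie opposite another annotated gene. Such overlaps also cover 6.55% of Gli1 (Arhgap9 and Gm47200), 1.96% of Gli3 and 1.93% of Hhip. Reads from an overlap cannot be assigned to 1 of its genes if counting ignored strand, which is not given in the sources used here.

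Smo, which encodes Smoothened, varied least of the 9. Its levels were 2581, 2444 and 2184 in DKO, 2387, 2259 and 2712 in KO and 2573, 2519.6 and 2173 in WT. The group means were 2403 ± 202 in DKO, 2453 ± 234 in KO and 2422 ± 217 in WT (SD, n = 3). The 95% intervals held the DKO to KO ratio to 0.838 to 1.15, the DKO to WT ratio to 0.848 to 1.16 and the KO to WT ratio to 0.865 to 1.19. The mice of the 3 groups overlapped, with KO 3 highest and WT 3 lowest.

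Sufu encodes a cytoplasmic protein that holds Gli factors back. It had 3069, 2373 and 2351 normalized counts in DKO, 2412, 2544 and 3462 in KO and 2459.6, 2573 and 2789.9 in WT. DKO 1 and KO 3 were high, and the remaining 7 mice lay within 2351 and 2789.9. The DKO to KO ratio had a 95% interval of 0.737 to 1.18, the DKO to WT ratio one of 0.784 to 1.25 and the KO to WT ratio one of 0.843 to 1.34.

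The transcription factor genes were low in whole kidney. Gli1, the activator that is switched on by the pathway, had 33.6, 17.2 and 28.7 normalized counts in DKO, 26.8, 34.6 and 38.02 in KO and 34.1, 20.3 and 50.1 in WT. WT 2 and WT 3 alone spanned most of the range of all 9 mice. The log2 fold changes were -0.35 ± 0.37 between DKO and KO (adjusted p = 0.844), -0.34 ± 0.37 between DKO and WT (adjusted p = 0.772) and 0.01 ± 0.37 between KO and WT (adjusted p = 0.996). As folds the 95% intervals were 0.440 to 1.40 for DKO against KO, 0.442 to 1.41 for DKO against WT and 0.562 to 1.79 for KO against WT.

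Gli2, the main activator downstream of Smoothened, had 29.5, 53.5 and 23.96 in DKO, 27.8, 15.9 and 26.3 in KO and 34.1, 33.8 and 31.6 in WT. The WT mice were close together, all 3 KO mice lay below them, and the DKO mice ranged from among the KO values to above all WT values. Its fold change was 0.55 ± 0.34 between DKO and KO (adjusted p = 0.660), 0.02 ± 0.34 between DKO and WT and -0.53 ± 0.34 between KO and WT (adjusted p = 0.441). The last was the smallest adjusted p of the 9 genes in that comparison.

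Gli3, the main repressor, had 34.6, 47.1 and 29.7 in DKO, 92.4, 49.5 and 37.0 in KO and 52.2, 47.3 and 37.0 in WT. KO 1 stood alone at the top. The difference between DKO and KO was -0.59 ± 0.34 (adjusted p = 0.624), the smallest adjusted p of the 9 genes there, and that between KO and WT was 0.29 ± 0.34. Without KO 3 the first became -0.87 (unadjusted p = 0.0285, limma adjusted p = 0.254), and without KO 1 the second became -0.07. Over all fits that left out 1 mouse, the first ranged from -0.87 to -0.23, with a limma adjusted p of up to 0.979.

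Stromal markers of the same mice differed most between DKO and KO. The 19 fibroblast, pericyte and myofibroblast markers summed to 16409 to 25951 in DKO, 22452 to 34292 in KO and 21225 to 26398 in WT. These ranges overlapped, and the most abundant markers were Nt5e, Col1a2 and Col3a1. None of the 19 was at 0 in all libraries. Of the 19, 1 fell in DKO against KO (Col1a1, a collagen chain), where 0.394% of all genes passed. In DKO against WT 0 passed (0.229% of all genes), and in KO against WT 0 passed (2.4% of all genes). At an unadjusted p below 0.05, 10 were lower and 0 higher in DKO against KO (10.7% of all genes), 3 were lower and 0 higher in DKO against WT (11.7% of all genes), and 4 were higher and 0 lower in KO against WT (18% of all genes). Over the list the median log2 fold changes were -0.51 between DKO and KO, -0.39 between DKO and WT and 0.46 between KO and WT. The part of stromal content in the Gli values was not tested.

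**Figure D2:**
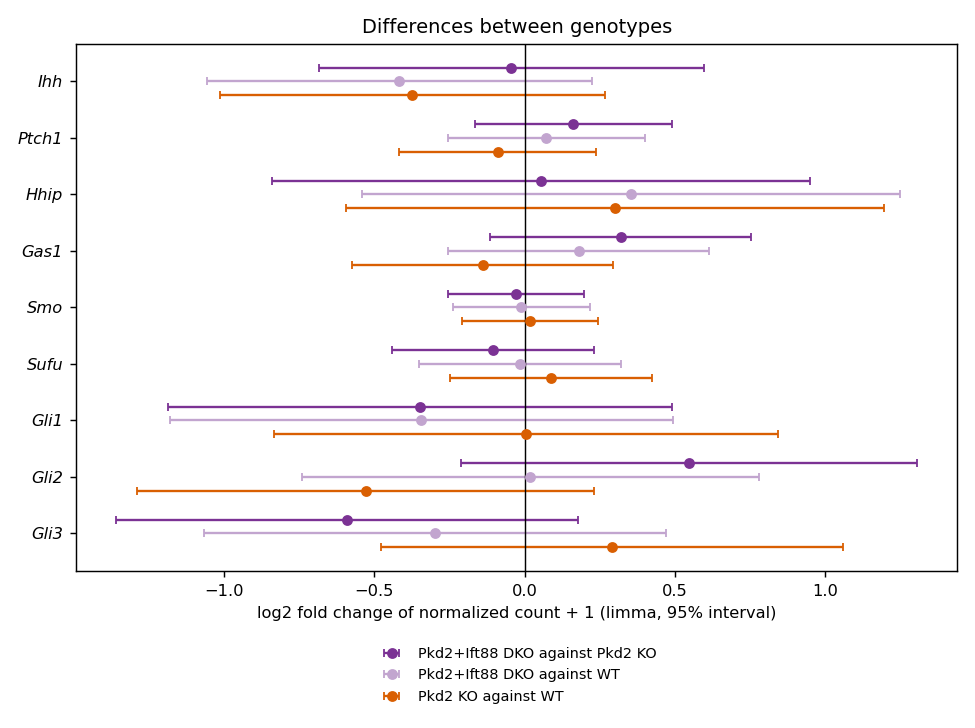
Log2 fold changes of the 9 genes with 95% intervals from limma, for DKO against KO, DKO against WT and KO against WT. Every interval includes 0, and the intervals of Smo, the narrowest, stay within -0.26 and 0.24, whereas over all 9 genes the limits reach -1.36 (Gli3, DKO against KO) and 1.31 (Gli2, DKO against KO).

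Per length, the genes fell into a high and a low class in all 3 genotypes. Levels were taken as normalized counts per kb of the longest protein-coding GENCODE M21 transcript, and Ihh and Ptch1 stood at the lower end of the high class. In DKO the means per kb were 733 for Gas1, 636 for Smo, 574 for Sufu, 308 for Ihh, 214 for Ptch1, 6.54 for Gli1, 5.37 for Gli2, 4.55 for Gli3 and 2.08 for Hhip. In KO they were 649 for Smo, 621 for Sufu, 585 for Gas1, 301 for Ihh, 189 for Ptch1, 8.17 for Gli1, 7.30 for Gli3, 3.52 for Gli2 and 1.88 for Hhip. In WT they were 641 for Gas1, 641 for Smo, 577 for Sufu, 389 for Ihh, 202 for Ptch1, 8.59 for Gli1, 5.57 for Gli3, 4.998 for Gli2 and 1.56 for Hhip. Gas1, Smo and Sufu overlapped within each group, and their order differed between groups. Gli1 and Gli3 also overlapped in each group, with the mean of Gli1 the higher, while Gli2 lay below both in KO and overlapped both in DKO and WT. Hhip was below the Gli genes in all mice of its group. Ihh and Ptch1 overlapped only in DKO, where DKO 1 took Ihh down to 173 per kb. The transcript used by the authors' counting is not given in the sources used here, so the order within a class depends on the lengths taken.

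**Figure D3:**
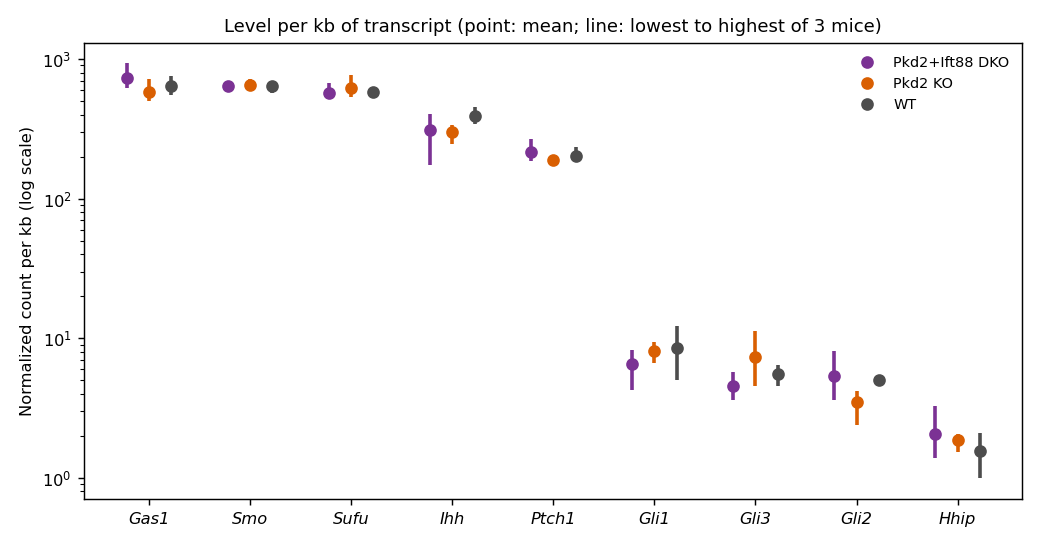
Normalized counts per kb of transcript on a log axis for DKO, KO and WT kidneys, with the mean of 3 mice as a point and the lowest to highest mouse as a line. Gas1, Smo, Sufu, Ihh and Ptch1 lie at 173 per kb or more in all mice, and the 3 Gli genes and Hhip at 12.3 or less.

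Of the 36 pairs of the 9 genes, 1 passed by Pearson's r, Ptch1 and Smo, which ran in opposite directions across mice. How often other genes correlate this strongly in these libraries was not tested, and Smo spanned only 1.25-fold. Over the 9 libraries Pearson's r of Ptch1 and Smo was -0.84 (exact permutation p = 0.000303, Benjamini-Hochberg adjusted over the 36 pairs p = 0.0109). Spearman's rho was -0.87 (exact permutation p = 0.00451, adjusted p = 0.0812), and no pair passed by rho. Within groups, as deviations from each group's mean, r was -0.87, and without the 2 mice farthest from the median of Ptch1, WT 3 and DKO 3, it was -0.85. It kept its sign without any 1 mouse (r of -0.91 to -0.80), while the adjusted p was above 0.05 without WT 1, KO 2, KO 3 or DKO 1 (highest 0.0982) and with quantile normalization (0.0542). It was also above 0.05 on the 7 libraries with recovered reads (r = -0.84, adjusted p = 0.121) and without WT 3 and KO 3 together (r = -0.78, adjusted p = 0.314). A further 3 pairs had an unadjusted p below 0.05 and did not pass the adjustment. Of these Ptch1 and Gas1 turned from 0.68 to -0.82 without WT 3 and DKO 3, and Ihh and Sufu turned from -0.68 to 0.25 without KO 3 and DKO 1, so both rest on those mice. The remaining pair, Gas1 and Gli3, kept its sign. Its r was -0.77 (exact permutation p = 0.0164, adjusted p = 0.294) and its rho -0.88 (exact permutation p = 0.00308, adjusted p = 0.0812). Its r was -0.82 without KO 2 and DKO 3, and -0.68 within groups.

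**Figure D4:**
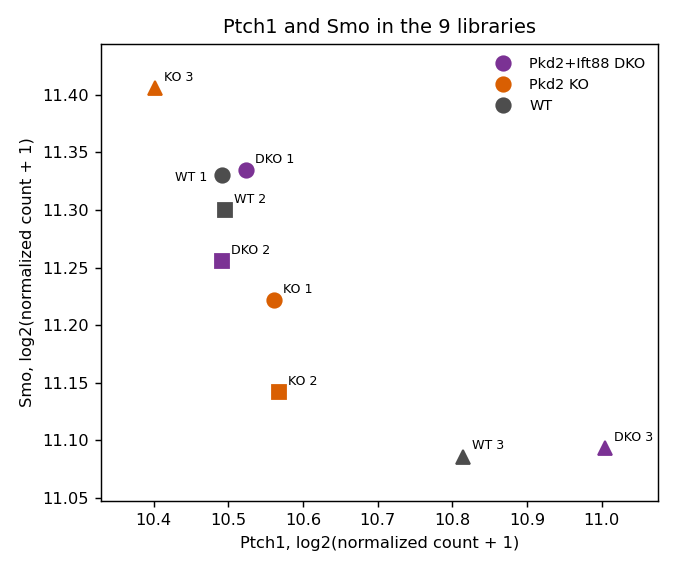
Smo against Ptch1 in the 9 libraries, both as log2(normalized count + 1), coloured by genotype. DKO 3 and WT 3 combine high Ptch1 with low Smo, KO 3 has the lowest Ptch1 and the highest Smo, and each genotype spans the slope.

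By the smallest root mean square distance of centred log2 profiles over the 9 libraries, the genes nearest to Ihh among 12301 were Ifrd1, Rhob and Slc22a7, an organic anion transporter gene, at 0.18, 0.18 and 0.20. The median gene lay at 0.42. Nearest to Gli1 were Mill2, Jrk and Chst12, all at 0.23 where the median was 0.46. Nearest to Hhip were Bhlhe41, Coch and Rtp3 at 0.22 to 0.24 where the median was 0.47. A flat profile would lie at 0.39 from Ihh, 0.43 from Gli1 and 0.42 from Hhip, so the median gene is no nearer than a flat one. Gli1 and Hhip are so low that counting noise is part of these profiles.

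The wider pathway was read from 5 lists holding 86 genes in the table, of which 82 were tested. Between DKO and KO, and between DKO and WT, limma called 0 of 82, where 0.394% and 0.229% of all genes passed. At an unadjusted p below 0.05, 4 were higher and 6 lower between DKO and KO (10.7% of all genes), 4 were higher and 3 lower between DKO and WT (11.7% of all genes), and 10 were higher and 4 lower between KO and WT (18% of all genes). After adjustment limma called, between KO and WT, 2 higher and 1 lower, 3.66% of the 82 beside 2.4% of all genes, which is near the background. The 3 called genes were Glis2, Foxm1 and Sfrp1, and all 3 belong to the outer lists of nuclear partners and of genes known as targets in other tissues. DESeq2 on the 7 libraries called all 3 too, with adjusted p of 0.00141 to 0.00591.

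Among ligand, release and processing genes 0 of 11 passed in any comparison. That is near the background of 0.394% of all genes between DKO and KO, 0.229% between DKO and WT and 2.4% between KO and WT. Shh, the ligand of the collecting system in development, had a mean of 50.3 ± 10.4 in DKO, 43.3 ± 3.75 in KO and 42.5 ± 20.4 in WT, and Dhh, the third ligand, had 19.8 ± 2.01 in DKO, 26.2 ± 6.15 in KO and 26.5 ± 6.44 in WT (SD, n = 3). Adam10, a membrane protease and the most abundant of this list, had 5033 ± 160 in DKO, 5281 ± 98.3 in KO and 4661 ± 164 in WT. Of 9 further receptor and co-receptor genes 0 passed in any comparison, again near that background. Lrp2, an endocytic receptor that is also on the proximal tubule list and was the most abundant of them, had 177235 ± 7975 in DKO, 176604 ± 15023 in KO and 162103 ± 12118 in WT. The co-receptor genes Boc and Cdon were 341 ± 25.4 and 477 ± 36.8 in DKO, 350.4 ± 45.1 and 472 ± 48.0 in KO, and 398 ± 31.4 and 467 ± 92.7 in WT. Shh, Dhh, Boc and Cdon are named as the closest relatives or partners of the 9 genes, outside the rule for named genes.

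Of 16 ciliary regulators of Smoothened and Gli proteins in the table, 0 passed in any comparison. Of all genes 0.394% passed between DKO and KO, 0.229% between DKO and WT and 2.4% between KO and WT, so this is near the background. The median log2 fold change of the 16 was 0.05 between DKO and KO, 0.02 between DKO and WT and -0.04 between KO and WT. Evc, which encodes a protein at the base of the cilium that binds Smoothened and was the most abundant of them, had 8788 ± 1079 in DKO, 7859 ± 405 in KO and 8583 ± 523 in WT.

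Glis2 is a Gli-similar zinc finger gene that is mutated in a form of nephronophthisis. It was the 1 of 24 tested kinases, ubiquitin ligases and nuclear partners to pass in KO against WT, where 2.4% of all genes passed. Its levels were 9579, 9434 and 8994 in DKO, 11148, 12574 and 12395 in KO and 8469.6, 8416 and 9649.9 in WT. All KO mice were above all others. It rose in KO against WT by 0.45 ± 0.08 on the log2 scale (limma adjusted p = 0.0252), and the call was lost without WT 1, WT 2 or KO 2 (highest adjusted p = 0.105), with edgeR (0.193) and with limma on the same 7 libraries (0.184). DKO against KO gave -0.37 ± 0.08 (adjusted p = 0.0959), which passed with DESeq2 (0.0108) and with array quality weights (0.0377). DKO against WT gave 0.08 ± 0.08. Prkar1a, a regulatory subunit gene of protein kinase A and the most abundant uncalled gene of this list in KO against WT, had 10205.5 ± 718 in DKO, 9645 ± 136 in KO and 10294 ± 371 in WT.

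Of 23 tested genes known as Gli targets in other tissues, 1 rose and 1 fell in KO against WT, where 2.4% of all genes passed. Foxm1, a transcription factor of dividing cells, had 57.0, 69.8 and 95.8 in DKO, 205, 264 and 283 in KO and 51.2, 58.6 and 107.8 in WT. It was high in every KO mouse and overlapped between DKO and WT. It rose in KO against WT by 1.84 ± 0.30 (limma adjusted p = 0.0191), and 6 alternatives lost the call: leaving out any one of WT 1, WT 2, KO 1 and KO 2 (highest adjusted p = 0.0861), edgeR (0.191) and limma on 7 libraries (0.175). Between DKO and KO it gave -1.76 ± 0.30 (adjusted p = 0.0510), just over the threshold. It was called there with DESeq2 (6.10e-05), array quality weights (0.0120), a pseudocount of 10 (0.0391), without WT 3 (0.0284) and without WT 3 and KO 3 together (0.0322).

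Sfrp1, which encodes a secreted Wnt antagonist, had 4586, 5383 and 4416 in DKO, 4212, 4309.7 and 3252 in KO and 7314, 6231 and 6940.5 in WT. All mutant mice lay below all WT mice. It fell in KO against WT by 0.81 ± 0.12 on the log2 scale (limma adjusted p = 0.0156), a call lost without WT 1 (0.0691), with edgeR (0.191) and with limma on 7 libraries (0.166). DKO against WT gave -0.51 ± 0.12 (adjusted p = 0.165). Spp1, the most abundant uncalled gene of this list, was 18358 ± 4983 in DKO, 24335 ± 9810 in KO and 21098 ± 1240 in WT.

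**Figure D5:**
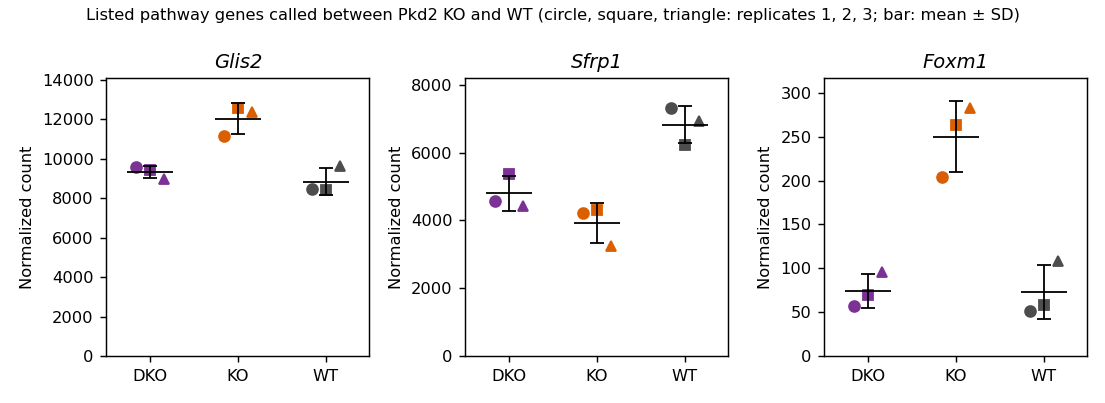
Normalized counts (vertical axes, from 0) of the 3 listed pathway genes that limma called between KO and WT, one symbol per mouse, with mean and SD of 3 mice. KO mice are above all others for Glis2 and Foxm1, and all WT mice are above the mutant mice for Sfrp1.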

How the data were processed

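Poly(A) RNA-seq of 9 kidneys was used as deposited. The deposited values are a signal, normalized counts per gene, and STAR 2.5.0, HTSeq 0.6.1 and DESeq2 are the tools named in the submitters' processing notes. Which build, annotation and strand setting were used is not given in the sources used here. In 7 libraries 100% of values were whole multiples of the value of 1 read (tolerance 0.05), which recovered 37056843 to 47314829 reads; WT 1 and KO 1, where 1 read is worth too near to 1, entered no count test.

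The test was limma 3.58.1 under R 4.3.3, on log2(value + 1) of genes whose mean reached 10. It used an intensity trend, one mean per group over all 9 libraries and no block, and was two-sided. Genes passed where the p adjusted by Benjamini and Hochberg's method was below 0.05. Fold changes on this scale understate those of low genes. Alternatives were other pseudocounts, filters and scalings, array weights, a replicate block, fewer groups or libraries, edgeR 4.0.16 and DESeq2 1.42.0. The procedure was tested on simulated data.

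The 9 genes and all lists were chosen with earlier results of these data known. Beyond the 9 genes, the rule names called members of the pathway lists, each list's most abundant uncalled member and the 3 genes nearest in profile to Gli1, Hhip and Ihh. Samples were grouped by their titles, the design calls them biological replicates, and relatedness of mice is not given, so p-values measure the spread between these mice.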

Additional observations from a re-analysis of the deposited data

How the results depend on the processing

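Across 22 alternatives and 3 comparisons no Hedgehog gene was called, and the lowest adjusted p was 0.162 (Gli2, array quality weights). Over all genes the same alternatives called from 8 (DKO against KO without KO 1) to 3222 (KO against WT with array quality weights). At most 2 of 9 had an unadjusted p below 0.05 under any one alternative, each time in DKO against KO. That was with array quality weights, without KO 3, and without WT 3 and KO 3 together. In the main fit 10.7% of all genes had such a p there, and the share under the alternatives is not given. Of 582 fold changes of the 9 genes under these alternatives, 533 kept their direction and 49, all of uncalled genes, changed sign. The low counts of Hhip and the Gli genes limit what can be seen.

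Calls over all genes moved more. KO against WT had 377 calls, and 3222 with array quality weights, 217 with a replicate block, 11 with edgeR, 13 with limma on 7 libraries and 70 to 436 without 1 mouse. DKO against KO had 62, and 31 with quantile normalization, 614 with weights, 26 with only 2 groups, 15 with the block, 10 with edgeR, 149 with DESeq2, 11 with limma on 7 libraries, 308 without WT 3 and KO 3, and 8 to 154 without 1 mouse. DKO against WT had 36, and 295 with weights, 20 with the block, 10 with edgeR, 111 with DESeq2, 11 with limma on 7 libraries, 111 without WT 3 and KO 3, and 18 to 58 without 1 mouse. The limma fit on 7 libraries and the fit without WT 3 and KO 3 were chosen after seeing the data, as were the settings tried on the Ptch1 and Smo correlation. No alternative put the median of all genes further than 0.0142 from 0 on the log2 scale.

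Same-numbered mice did not pair: their deviations correlated at -0.14 to 0.21, and of 6 libraries 0 in DKO against KO, 4 in DKO against WT and 2 in KO against WT correlated best with their own number. The replicate block lost the Glis2 call in KO against WT (adjusted p = 0.0543) and added that of Foxm1 in DKO against KO (0.0366). Among the 9 genes Gas1 had the lowest limma adjusted p under the block in each comparison. It was 0.227 in DKO against KO, 0.466 in DKO against WT and 0.420 in KO against WT.

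Sign changes were as follows. In KO against WT they were Gli1 (-0.0092 with a pseudocount of 10, -0.13 with quantile normalization), Ptch1 (0.0355 with weights, 0.0715 without WT 3 and KO 3), Smo (-0.0959 and -0.133 likewise) and Sufu (-0.0222 without WT 3 and KO 3). In DKO against KO they were Smo (0.0457 with weights, 0.046 without WT 3 and KO 3), Sufu (0.0347 and 0.0573 likewise), Ihh (0.0769 with edgeR, 0.0791 with DESeq2, 0.008 with limma on 7 libraries) and Hhip (-0.0771 with limma on 7 libraries). In DKO against WT they were Smo (0.0381, 0.0348 and 0.0351 with edgeR, DESeq2 and limma on 7 libraries), Foxm1 (-0.16, -0.16 and -0.13 likewise), Sufu (0.0462 with weights, 0.035 without WT 3 and KO 3) and Gli2 (-0.015 without WT 3 and KO 3). Leaving out 1 mouse gave ranges across 0 in KO against WT for Gli1 (-0.33 to 0.31), Gli3 (-0.0715 to 0.58), Ptch1 (-0.14 to 0.0173), Smo (-0.0583 to 0.0752) and Sufu (-0.072 to 0.19). In DKO against KO it did so for Hhip (-0.30 to 0.28), Ihh (-0.29 to 0.33), Ptch1 (-0.0026 to 0.25), Smo (-0.0859 to 0.046) and Sufu (-0.23 to 0.0573). In DKO against WT it did so for Foxm1 (-0.13 to 0.40), Gas1 (-0.0039 to 0.30), Gli2 (-0.31 to 0.26), Hhip (-0.0021 to 0.59), Ptch1 (-0.0922 to 0.18), Smo (-0.0869 to 0.0566) and Sufu (-0.14 to 0.0516). The cause was not tested.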
